A study of Mus musculus with 10 samples.

Results

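Mouse embryonic stem (ES) cells labelled as stably expressing Prdm14, or cells that lacked the maintenance DNA methyltransferase Dnmt1, shared a set of 90 genes whose array signal stood well above that of wild-type cells, while cells lacking only Dnmt3b did not. The 90 genes were chosen from the deposited log2 value table of 10 arrays. A gene was kept when its group mean was at least 1.5 log2 units above the wild-type mean in each of 4 lines (2 PRDM14-labelled lines, the Dnmt1-/- line and the triple knockout), less than 0.5 above it in the Dnmt3b-/- line, and when the scanner called its spot well above background on all arrays of the 4 raised lines. The rule was applied to 31551 named genes, each read from its probe with the highest mean. Of 205 genes that met the thresholds in the 4 raised lines, 115 were left out because they also stood at least 0.5 higher in the Dnmt3b-/- line. Every difference from wild type, and that of the Dnmt3b-/- line, was used to choose the genes, so those differences are given as a description with no test. The comparisons among the 4 raised lines were not used by the rule and were tested.

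All 6 groups were ES cells grown without feeders in serum with LIF. J1 is the wild-type line (2 arrays). JP-23 is J1 stably expressing Prdm14 (2 arrays), and JP-23+3b-3 expresses both Prdm14 and Dnmt3b1, a catalytically active isoform of Dnmt3b (2 arrays). Line 8bb is Dnmt3b-/- (2 arrays), line 36 is Dnmt1-/- (1 array), and line 19-1 lacks Dnmt1, Dnmt3a and Dnmt3b (triple knockout, TKO, 1 array). Each group is 1 cell line, so a difference between groups is also a difference between lines, and the labels do not say that replicate arrays came from separate cultures. The p-values therefore reflect array-to-array scatter only, part of which may be technical. The series was designed to ask how DNA demethylation in cells overexpressing PRDM14 affects gene expression.

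PRDM14 is a DNA-binding protein of naive pluripotent cells and primordial germ cells that represses de novo methyltransferase genes. Dnmt1 copies methylation to the new strand after replication, and Dnmt3a and Dnmt3b add methylation to unmethylated DNA. Zscan4, Tcstv, Usp17-like and eIF1A-like genes are known from the 2-cell mouse embryo and are transcribed in rare ES cells that pass through a 2-cell-like state. Rhox and Xlr genes are X-linked germline genes, several of them held silent by promoter methylation.

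The targeted genes matched the knockout labels, while the PRDM14 labels could not be checked. Dnmt1 signal was 17.6-fold lower than in J1 in the Dnmt1-/- line and 24.5-fold lower in the TKO, and Dnmt3b was 60.9-fold lower in the Dnmt3b-/- line and 48.3-fold lower in the TKO (limma, adjusted p from 1.45e-05 to 0.000197). Dnmt3a was not well above background in the TKO. The single Prdm14 probe was 18.1-fold lower than in J1 in JP-23, and in JP-23+3b-3 it was not well above background. Whether it lies in the transcribed part of the transgene is not given, so it checks nothing about it, and these lines are called the PRDM14-labelled and the PRDM14/DNMT3B1-labelled line throughout. Dnmt3b stood 2.56 log2 units below J1 in the first and 3.45 below in the second. The second is labelled as expressing Dnmt3b1, and whether the Dnmt3b probe reads that transgene was not tested. All 8 ES cell markers were well above background on all 10 arrays. Of 7 primitive endoderm markers, all 7 were above background in the TKO and 2 to 5 on each other array. Of 5 fibroblast markers tested, 3 to 5 were above background on each array, but their levels differed by line. Median levels, scaled as below, were -1.98 in J1, -4.34 in the PRDM14-labelled line and -2.52 in the PRDM14/DNMT3B1-labelled line. They were 1.42 in the Dnmt3b-/- line, 0.49 in the Dnmt1-/- line and 0.01 in the TKO. The PRDM14-labelled line was also compared with the mean of the Dnmt1-/- line and TKO. Median differences were -2.87 for 13 fibroblast, -2.23 for 19 primitive endoderm, 1.01 for 29 naive pluripotency and -0.01 for 14 housekeeping genes. The part of other cell types in the results below was not tested.

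The members fell into 12 groups by gene name, map position or shared probe sequence, which together held 63 genes, and 27 genes were in none of them. Of these 27, the unnamed probes A_55_P2136612 and A_55_P2081432 still share runs of 51 and 39 bases with the probes of Gm4340 and BC147527, and the unnamed probe A_55_P2001523 lies between those of Zscan4c and Zscan4e on chromosome 7. By probe position in mm9, 16 members lay on chromosome 7, 10 on chromosome 4, 8 each on chromosomes 5 and 12, and 7 on the X. Many belong to families of similar genes. The probes of 25 members shared a run of at least 20 of their 60 bases with another member's probe, for 17 pairs in all. The longest such runs were 53 bases between Zscan4a and Zscan4c, 51 between Gm4340 and A_55_P2136612, and 49 between the unnamed probes A_55_P2007495 and A_55_P2114318. Signals of such members cannot be assigned to 1 copy and are not independent of each other.

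Promoter windows of some members were near copies too. RefSeq (GRCm38.p6) held a window from 250 bases before to 50 after the start for 45 members. The first 2 promoters below are near copies, with 275 of 277 aligned bases identical over the full windows. Those of Rhox2c and Rhox2h were identical at 282 of 300. Those of Klk1 and its paralogue Klk1b3 were less alike, at 193 of 247, and those of Klk1 and Klk1b5 matched at 90 of 274. In the Gm428 group, Gm11758 and Gm11757 were identical at 268 of 268 aligned bases and Gm428 and Gm11758 at 291 of 300. Gm4303 and Gm4312 of chromosome 10 matched at 292 of 297, and the Pramel genes BC061212 and A430089I19Rik at 262 of 300. Many other pairs within a group were not copies by ungapped alignment. Most Pramel pairs lay between 31.5% and 36.2% identical, and AF067061 and BC147527 at 32.0%. The stretches are the 120 bases before the start, 5′ to 3′, with CpG sites in capitals. They were chosen to set Zscan4, Pramel, Klk1 and Rhox2 promoters beside the CpG-rich promoter of the germline kinase Stk31. The stretches hold 3 CpG sites each for Zscan4c, Zscan4f and Rhox2h, 4 for Rhox2c, 2 for BC080695, 0 for Klk1 and 15 for Stk31. Zscan4 and Rhox2 differ only over the full windows, with 4 for Zscan4c and 3 for Zscan4f against 9 for Rhox2c and 7 for Rhox2h.

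Zscan4c, chr7:11005625-11005744, + strand: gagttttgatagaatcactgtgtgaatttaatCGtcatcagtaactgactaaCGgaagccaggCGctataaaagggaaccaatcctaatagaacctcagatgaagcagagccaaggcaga

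Zscan4f, chr7:11397795-11397914, + strand: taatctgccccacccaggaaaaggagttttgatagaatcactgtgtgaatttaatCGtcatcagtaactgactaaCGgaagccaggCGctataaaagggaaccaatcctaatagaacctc

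BC080695 (Pramel20), chr4:143567347-143567466, + strand: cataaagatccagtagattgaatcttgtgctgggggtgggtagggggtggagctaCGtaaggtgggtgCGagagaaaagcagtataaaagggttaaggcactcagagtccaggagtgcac

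Klk1, chr7:44225240-44225359, + strand: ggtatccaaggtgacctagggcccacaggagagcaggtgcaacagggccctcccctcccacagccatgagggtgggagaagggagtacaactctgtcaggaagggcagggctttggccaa

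Rhox2c, chrX:37453539-37453658, + strand: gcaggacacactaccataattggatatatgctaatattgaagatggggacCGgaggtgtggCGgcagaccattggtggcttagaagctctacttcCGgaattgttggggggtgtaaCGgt

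Rhox2h, chrX:37673278-37673397, - strand: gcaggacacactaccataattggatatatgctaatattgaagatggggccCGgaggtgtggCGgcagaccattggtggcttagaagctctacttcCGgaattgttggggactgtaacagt

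Stk31, chr6:49395419-49395538, + strand: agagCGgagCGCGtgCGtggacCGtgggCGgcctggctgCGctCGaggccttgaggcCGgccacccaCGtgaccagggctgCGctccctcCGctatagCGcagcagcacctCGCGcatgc

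CpG sites were sparse in most of these windows. The 45 members had a median of 3.0 CpG sites per window (interquartile range 1.0 to 7.0), against 7.0 (upper quartile 20, lower 3.0) for 27025 RefSeq genes, and 7 of the 45 (15.6%) held at least 10, against 44.4% of all genes. The 5 X-linked windows held 7 to 11, the 7 Pramel windows 1 to 3 and the 3 Klk1 windows 1 to 3. The motif TATAAA, searched on both strands, was found in 14 member windows (31.1%) and in 15.7% of all windows. It was in both Zscan4 windows, in 5 of 7 Pramel windows and in all 3 windows of the Gm428 group. The E-box CACGTG was in 3 (6.67%, against 8.09% of all genes) and the E2F-type motif GGCGGGAA in 2 (4.44%, against 2.52%). Copies of a promoter are counted once each, so these shares describe the set and are not independent observations.

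**Figure D1:**
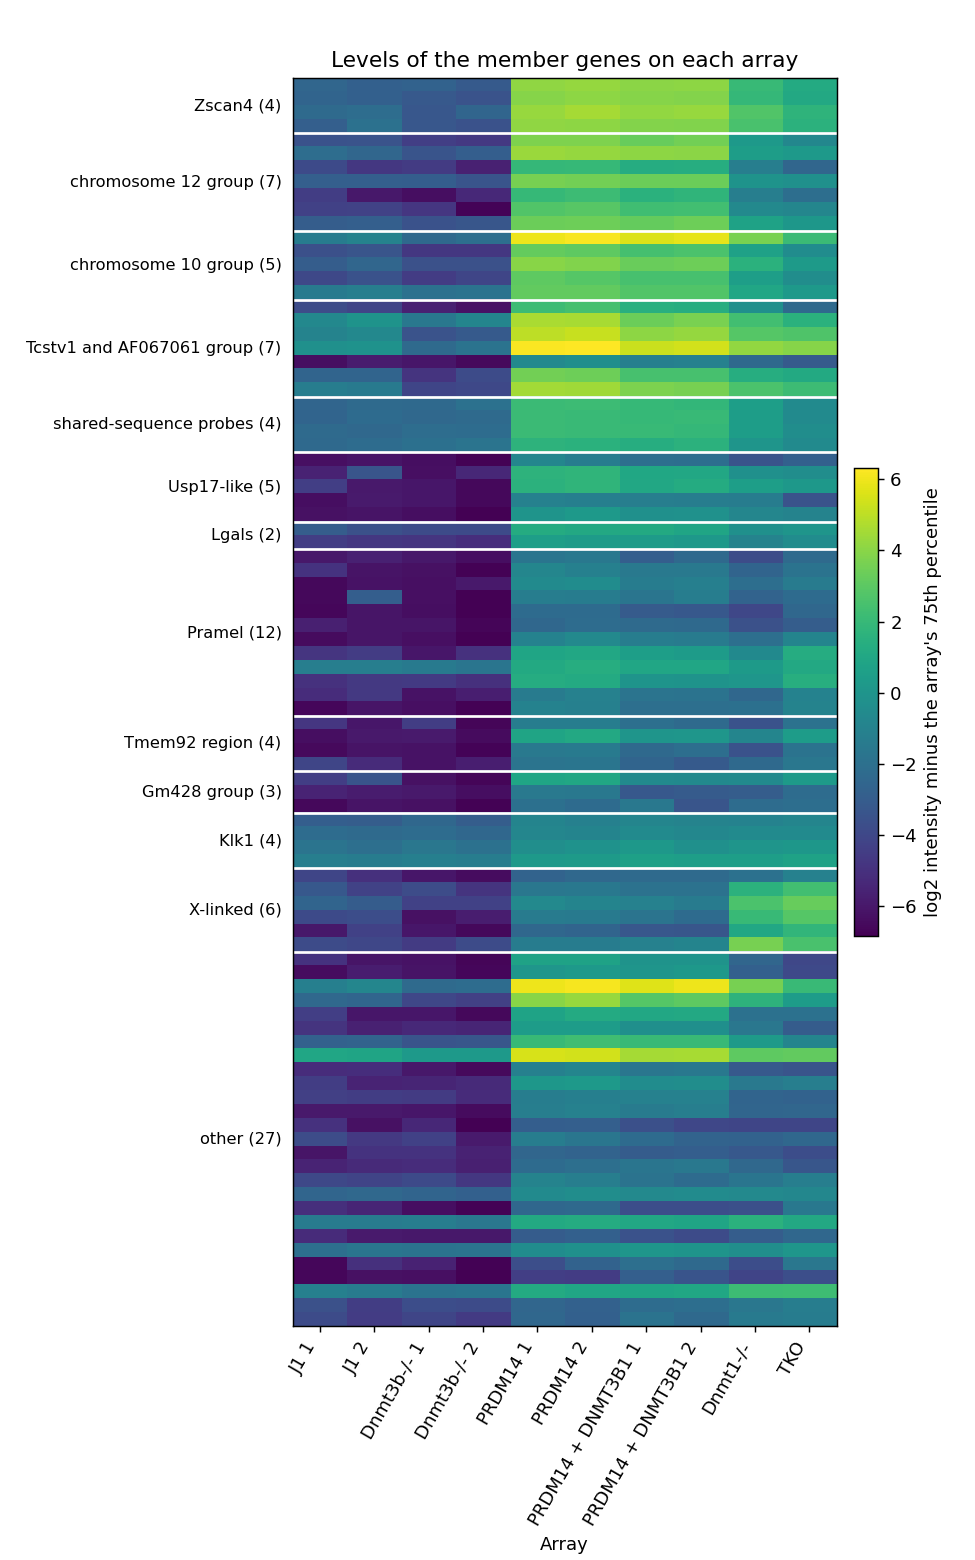
Levels of the 90 genes (rows, in groups; number of members in brackets) on each of the 10 arrays (columns). Colour is the log2 intensity minus the array's 75th percentile; the J1 and Dnmt3b-/- columns are dark (medians over all members -4.0 to -5.16) and the 6 columns of the raised lines lighter (-0.75 to 0.31).

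Levels are given as log2 intensity minus the 75th percentile of the array, so 0 is a bright probe and about -6 is the array floor. In J1, 40 members were not well above background on either array, 12 were on 1 array and 38 on both, so for many genes a fold over J1 is a lower bound, computed from the lowest signal well above background. In the Dnmt3b-/- line 54 were above background on neither array, and 79 of 90 stood below J1. The median difference from J1 over the members was 4.68 in the PRDM14-labelled line, 4.22 in the PRDM14/DNMT3B1-labelled line, 3.07 in the Dnmt1-/- line, 3.14 in the TKO and -0.48 in the Dnmt3b-/- line, where the medians over all 20490 genes tested were -0.02, -0.05, -0.13, -0.07 and -0.08. In bulk RNA, more cells of a type and more RNA per cell cannot be told apart. The arrays of a group differed by a median of 0.36 for members in J1 and 0.13 and 0.12 in the PRDM14-labelled and PRDM14/DNMT3B1-labelled lines. The J1 arrays differed by over 1 for 15 members.

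Most members stood higher in the lines labelled as carrying Prdm14 than in those without Dnmt1, while an X-linked group of 6 (Rhox2c, Rhox2e, Rhox2h, NAP103898-1, Xlr3b and Mageb4) stood lower. The comparison sets each PRDM14-labelled line against the mean of the Dnmt1-/- line and the TKO (the Dnmt1-deficient lines). A member passed where limma's Benjamini-Hochberg adjusted p was under 0.05. Of 90 members 54 passed as higher in the PRDM14-labelled line and 10 as lower, with a median difference of 1.27, where 28.8% and 21.1% of all 20490 genes tested passed (median 0.08). The PRDM14/DNMT3B1-labelled line had 45 higher and 10 lower, median 0.96, where 24.4% and 19.7% passed (median 0.06). The PRDM14-labelled arrays were alone on their 2 slides, so slide and line cannot be told apart in any comparison with them. Without PRDM14-labelled array 2 fewer members passed as lower, and the share of all genes that passed as lower fell too. Array 1 of the PRDM14/DNMT3B1-labelled line was on slide 1 with the Dnmt1-/- line and TKO, and its array 2 on slide 2. With slide as a fixed block 42 members were higher and 9 lower (26.5% and 19.9% of all genes), and with slide as a random block 48 and 10 (30% and 23%). These 2 comparisons share the Dnmt1-/- and TKO arrays. By the order of scan times within a slide (scan pass), those arrays were of pass 2 and the arrays of both PRDM14-labelled lines of pass 1. Scan pass and line therefore cannot be told apart in these 2 comparisons, and a slide block does not separate them.

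The line labelled as also expressing Dnmt3b1 was next set against the one without it. In PRDM14/DNMT3B1-labelled minus PRDM14-labelled, 76 of 90 members lay below 0, with a median of -0.42; 18 passed as lower and 1 as higher, where 11.7% and 11.4% of all genes passed (median -0.02). Leaving out any 1 array of either line lowered the count of 18, and the share of all genes that passed as lower fell too. The fall is therefore not particular to the members. The member that passed as higher was Popdc2. It no longer passed with either PRDM14-labelled array left out, or with PRDM14/DNMT3B1-labelled array 1 left out. In TKO minus Dnmt1-/-, 45 members lay on each side of 0; 5 passed as higher and 13 as lower, where 4.95% and 5.49% of all genes passed (median 0.07). Quantile normalization gave 9 and 16 there (5.37% and 6.51% of all genes), and normexp background correction 17 and 20 (5.01% each way). This rests on 1 array each, both on slide 1, with the spread taken from the other lines. With any 1 array of the PRDM14-labelled or PRDM14/DNMT3B1-labelled line left out, fewer members passed each way, and the share of all genes that passed fell too.

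**Figure D2:**
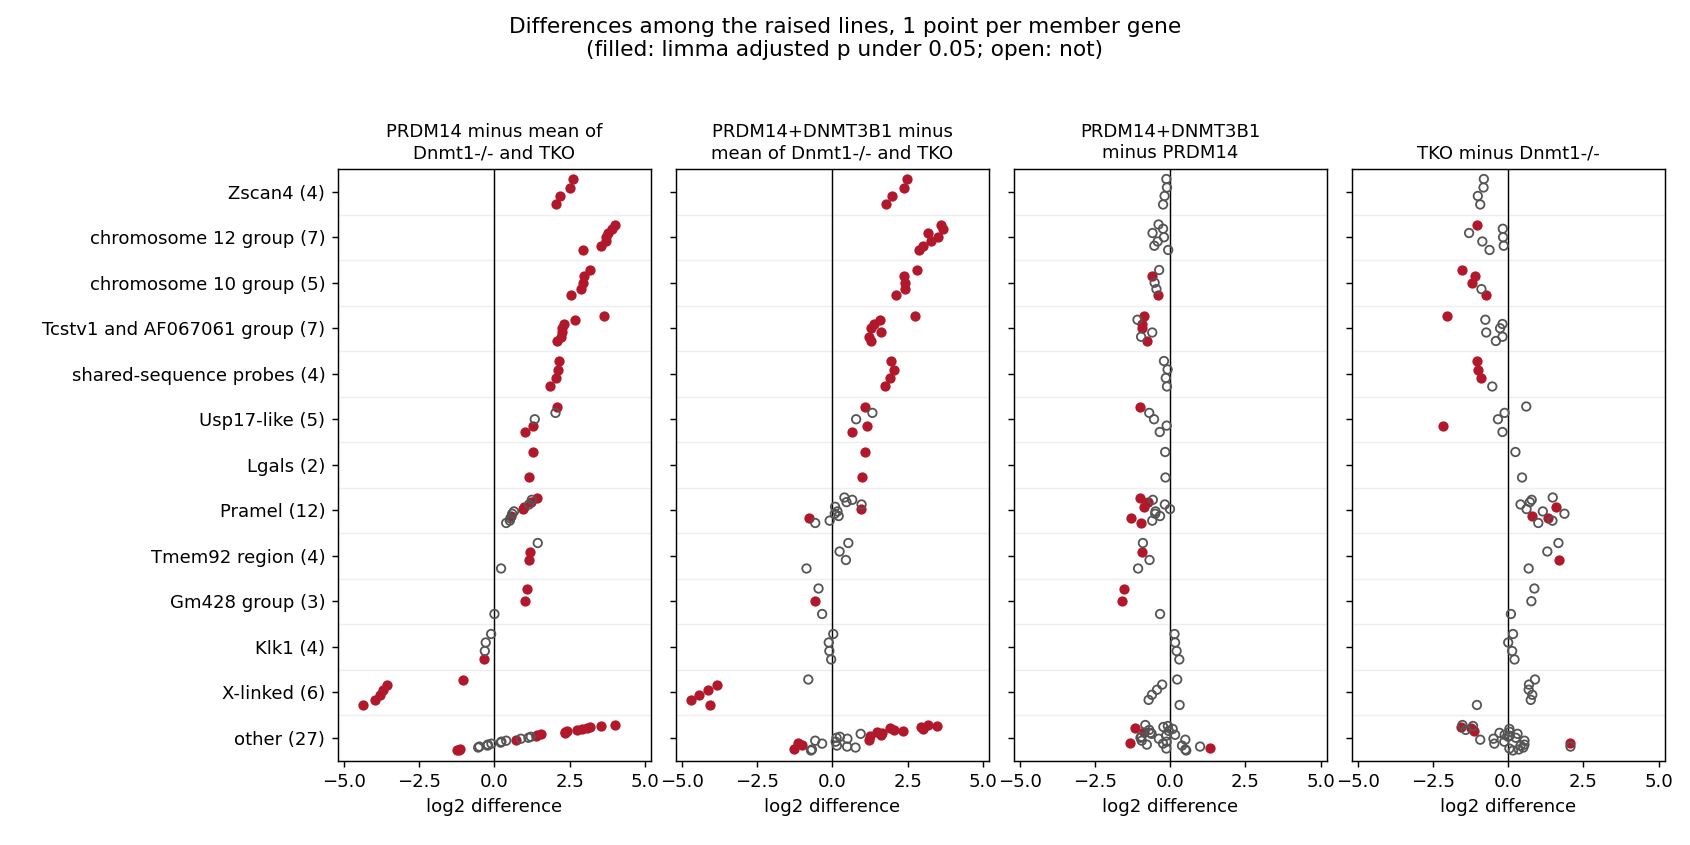
Log2 differences of the 90 members in the 4 tested comparisons (1 point per member, filled where limma's adjusted p is under 0.05), in rows by group. Zscan4, chromosome 10 and 12 and Tcstv1 groups lie right of 0 in the first 2 panels and the X-linked group of 6 left of 0, while Pramel genes lie right of 0 in the panel of TKO minus Dnmt1-/-.

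By the lowest of the 4 differences from J1 in the deposited table, 13 members came first, and 8 of them were not well above background on either J1 array, so the 13 have no order among themselves. These 8 were the deubiquitinase pseudogene Usp-ps, Tmem92-ps, the Usp17-like deubiquitinase Dub1, the Pramel gene A430089I19Rik, BC061212, ENSMUST00000098289, Gm13101 and Gm13043. Only lower bounds can be given for them, such as at least 19.6-fold over J1 in the TKO for Usp-ps and at least 9.50-fold in the Dnmt1-/- line for Tmem92-ps. ENSMUST00000106892, above background on 1 J1 array, had a lowest difference of 4.47. Zscan4e (4.41), Zscan4f (4.34), Zscan4c and AF067061 (both 4.27) were above background on both J1 arrays.

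Zscan4 genes encode SCAN-domain zinc-finger proteins tied to telomere maintenance in ES cells. Zscan4c, with its probe at chr7:11595751-11595810 (mm9), stood at -2.47 and -2.81 in J1, -2.71 and -3.09 in the Dnmt3b-/- line, 4.13 and 4.24 in the PRDM14-labelled line, 4.05 and 4.06 in the PRDM14/DNMT3B1-labelled line, 2.00 in the Dnmt1-/- line and 1.18 in the TKO. The PRDM14-labelled arrays were the highest and all 6 raised arrays lay far above J1. Relative to J1 this is 113-fold, 104-fold, 24.9-fold and 14.2-fold in the 4 raised lines in that order. Zscan4a, Zscan4e and Zscan4f had the same order, from 89.1 to 105-fold in the PRDM14-labelled line and from 13.9 to 15.8-fold in the TKO. All 4 genes passed the test as higher in each PRDM14-labelled line than in the mean of the Dnmt1-/- line and TKO. For Zscan4c the differences were 2.60 and 2.47 (SE 0.17, limma adjusted p 0.000142 and 0.000198). Between the Dnmt1-/- line and the TKO all 4 were lower in the TKO, by 0.81 to 1.01, and none passed the limma adjusted threshold, with 3 of 4 at an unadjusted p under 0.05.

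The 7 members of a chromosome 12 cluster include eIF1A-like genes, copies of a translation initiation factor gene. Gm2022 stood at -2.11 and -2.47 in J1, 4.31 and 4.24 in the PRDM14-labelled line, 4.06 and 4.02 in the PRDM14/DNMT3B1-labelled line, 0.46 in the Dnmt1-/- line and 0.28 in the TKO. Over the Dnmt1-deficient lines it was 15-fold higher in the PRDM14-labelled line and 12.7-fold higher in the PRDM14/DNMT3B1-labelled line. LOC641136 had the largest positive difference of any member in PRDM14-labelled minus Dnmt1-deficient, 4.01 (SE 0.12, limma adjusted p 1.88e-05). Gm2022 was at 3.91 and Gm7104 at 3.79, and the unnamed probe A_55_P2074435 was at 3.50 in PRDM14/DNMT3B1-labelled minus Dnmt1-deficient. All 7 passed in both comparisons, with median differences of 3.71 and 3.29. Gm8300, the member of this cluster on the list of 2-cell genes, was below background on both J1 arrays, and was at least 73.2-fold higher in the PRDM14-labelled line and at least 4.14-fold higher in the TKO.

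A chromosome 10 cluster contributed 5 members. Gm4340 stood at -1.33 and -0.95 in J1, -2.34 and -2.01 in the Dnmt3b-/- line, 5.98 and 6.20 in the PRDM14-labelled line, 5.63 and 5.82 in the PRDM14/DNMT3B1-labelled line, 3.67 in the Dnmt1-/- line and 2.14 in the TKO, which is 151-fold to 9.73-fold over J1. The Dnmt3b-/- arrays were the lowest. All 5 passed as higher in both PRDM14-labelled lines, with medians of 2.94 and 2.40. All 5 were lower in the TKO than in the Dnmt1-/- line, and 4 passed; Gm4340 was 2.89-fold lower (difference -1.53, SE 0.26, limma adjusted p 0.0211).

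The Tcstv1 and AF067061 group holds 7 probes, some of whose genes neighbour each other on chromosome 13 in RefSeq. AF067061 stood at -0.24 and -0.12 in J1, -2.30 and -1.82 in the Dnmt3b-/- line, 6.22 and 6.31 in the PRDM14-labelled line, 5.24 and 5.39 in the PRDM14/DNMT3B1-labelled line, 4.16 in the Dnmt1-/- line and 3.90 in the TKO. It was 87.2-fold to 16.9-fold higher in the raised lines than in J1. D13Ertd608e lay at -3.78 and -4.16 in J1, 2.20 and 2.41 in the PRDM14-labelled line, 1.47 and 1.38 in the PRDM14/DNMT3B1-labelled line, -0.31 in the Dnmt1-/- line and -2.35 in the TKO, and was 4.11-fold lower in the TKO than in the Dnmt1-/- line (limma adjusted p 0.0176). Tcstv1 was below background in J1 and at least 12.2-fold higher in the PRDM14-labelled line. All 7 passed as higher in each PRDM14-labelled line than in the Dnmt1-deficient lines. All 7 were also lower in the PRDM14/DNMT3B1-labelled line than in the PRDM14-labelled one, of which 4 passed (AF067061, -0.95, SE 0.17, limma adjusted p 0.0139).

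Of 5 Usp17-like deubiquitinase members on chromosome 7, 4 were not well above background on either J1 array, and ENSMUST00000106892 was above it on 1. Dub1 stood at -6.24 and -6.14 in J1, -0.02 and 0.27 in the PRDM14-labelled line, -0.26 and -0.19 in the PRDM14/DNMT3B1-labelled line, -0.78 in the Dnmt1-/- line and -0.97 in the TKO, and was at least 18.8-fold and 8.78-fold higher than J1 in the first and last of these. A second probe for Dub1 (A_55_P2002792), above background in the raised lines, did not show this: its differences from J1 were -0.41, -0.78, -0.42 and -0.80 in the 4 lines in that order. Of the 5 members, 3 passed as higher in each PRDM14-labelled line than in the Dnmt1-deficient lines, with medians over the 5 of 1.34 and 1.07. Dub1's difference of 0.65 for the PRDM14/DNMT3B1-labelled line changed sign in 2 of 16 alternative settings, with a lowest value of -0.25. Dub1a was 4.46-fold lower in the TKO than in the Dnmt1-/- line (limma adjusted p 0.0133), while Dub1 differed by 1.14-fold there (adjusted p 0.713).

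Galectins bind sugar chains on glycoproteins, and 2 galectin genes were members. Lgals6 stood at -4.43 and -4.68 in J1, where it was not well above background, 0.53 and 0.40 in the PRDM14-labelled line, 0.40 and 0.20 in the PRDM14/DNMT3B1-labelled line, -0.93 in the Dnmt1-/- line and -0.46 in the TKO. It was 2.23-fold and 1.99-fold higher in the PRDM14-labelled lines than in the Dnmt1-deficient lines (limma adjusted p 0.00183 and 0.00376), and Lgals4 2.41-fold and 2.14-fold. A further 4 probes with no gene name or only a clone name lie on chromosomes 7, 8, 13 and X but share runs of 20 to 49 bases. One of them, BB713741, comes from a 2-cell embryo clone and stood at -2.54 and -2.30 in J1, 2.11 and 2.16 in the PRDM14-labelled line, 1.97 and 1.88 in the PRDM14/DNMT3B1-labelled line, 0.52 in the Dnmt1-/- line and -0.53 in the TKO. All 4 passed as higher in both PRDM14-labelled lines, and 3 passed as lower in the TKO than in the Dnmt1-/- line.

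Pramel genes, relatives of the human cancer-testis antigen PRAME, and their neighbours on chromosomes 4 and 5 contributed 12 members. A430089I19Rik (Pramel39 in RefSeq) stood at -4.97 and -4.63 in J1, -4.60 and -5.02 in the Dnmt3b-/- line, 1.31 and 1.22 in the PRDM14-labelled line, -0.03 and -0.07 in the PRDM14/DNMT3B1-labelled line, 0.07 in the Dnmt1-/- line and 1.40 in the TKO. The TKO array was the highest and the Dnmt1-/- array lay with the PRDM14/DNMT3B1-labelled arrays. In TKO minus Dnmt1-/- all 12 lay above 0, by 0.41 to 1.87, and 3 passed (A430089I19Rik 1.32, BC080695 0.78 and Gm13109 1.60, limma adjusted p 0.03, 0.0427 and 0.0291). In PRDM14/DNMT3B1-labelled minus PRDM14-labelled all 12 lay below 0, and 5 passed, A430089I19Rik the largest at -1.31 (SE 0.18, limma adjusted p 0.006). BC061212, on the list of 2-cell genes, was also highest in the TKO, at least 8.22-fold over J1 in the PRDM14-labelled line and at least 8.85-fold in the TKO.

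The Tmem92 region on chromosome 11 (4 members) and the Gm428 group on chromosome 4 (3 members) also lay above 0 in TKO minus Dnmt1-/- for every member, by 0.68 to 1.70 and 0.09 to 0.87. Tmem92-ps stood at -6.35 and -5.92 in J1, 0.86 and 1.08 in the PRDM14-labelled line, 0.00 and 0.07 in the PRDM14/DNMT3B1-labelled line, -0.86 in the Dnmt1-/- line and 0.45 in the TKO. A430060F13Rik was 3.24-fold higher in the TKO than in the Dnmt1-/- line (limma adjusted p 0.0232). Gm11757 and Gm428 were lower in the PRDM14/DNMT3B1-labelled line than in the PRDM14-labelled one by 1.59 and 1.54 (limma adjusted p 0.00343 and 0.0237), and these were the largest such differences among the members.

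**Figure D3:**
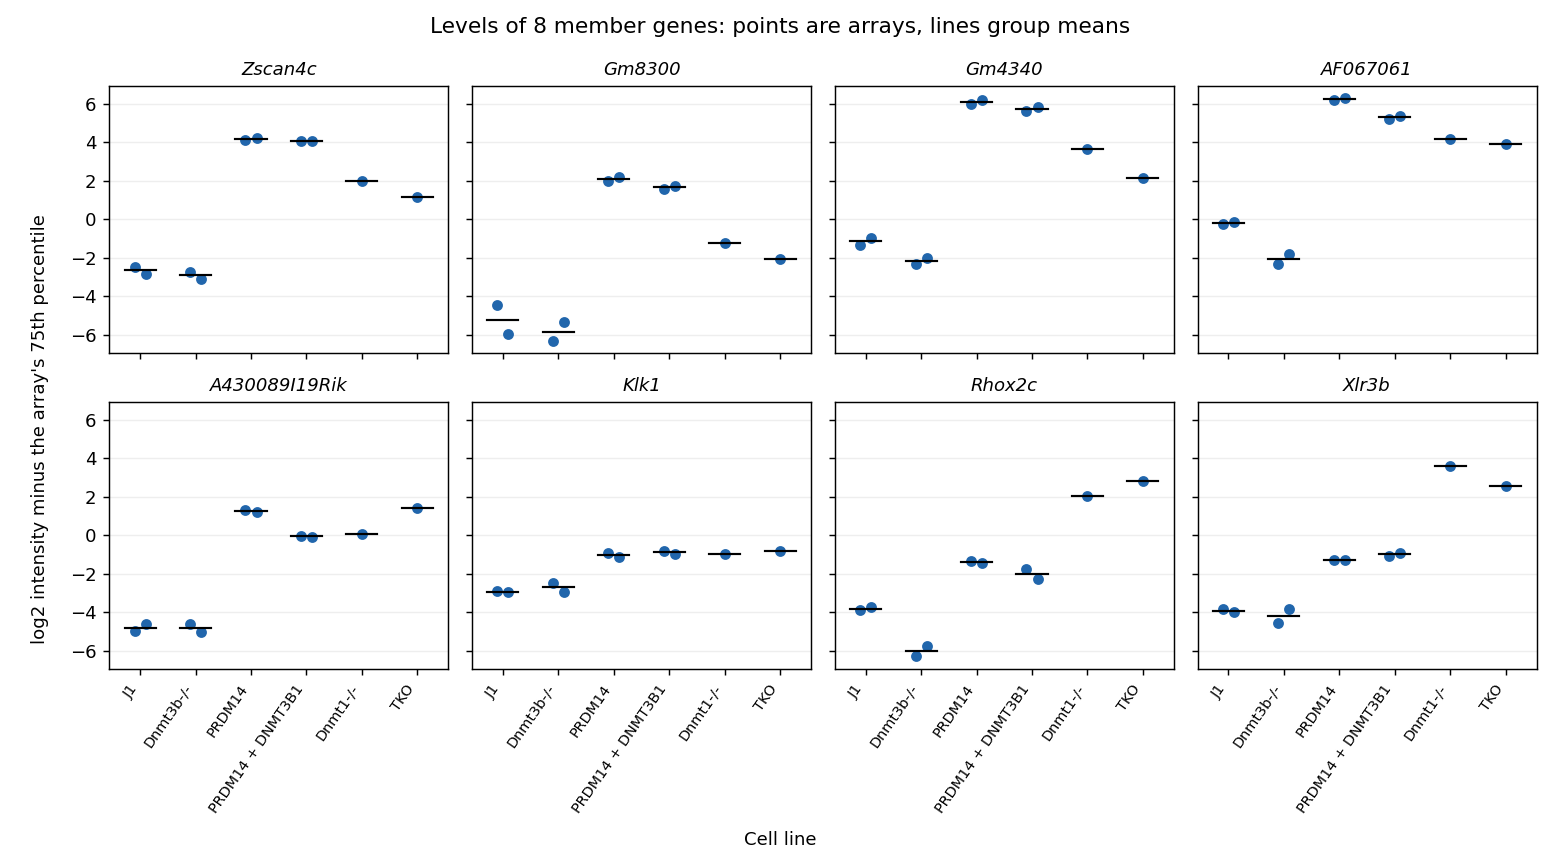
Levels of 8 member genes by line. Points are arrays, horizontal lines are group means (1 array each for Dnmt1-/- and TKO), and the y axis is log2 intensity minus the array's 75th percentile; Zscan4c, Gm8300, Gm4340 and AF067061 are highest in the PRDM14-labelled lines, Rhox2c and Xlr3b in the Dnmt1-/- line and TKO, and Klk1 differs little among the 4 raised lines.

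Tissue kallikreins, serine proteases clustered on chromosome 7, were among the members that differed least between the 4 raised lines. Klk1 stood at -2.91 and -2.96 in J1, -2.46 and -2.96 in the Dnmt3b-/- line, -0.92 and -1.13 in the PRDM14-labelled line, -0.83 and -0.95 in the PRDM14/DNMT3B1-labelled line, -1.0 in the Dnmt1-/- line and -0.84 in the TKO. Its 4 group means in the raised lines spanned 0.19, the narrowest of the 90 members. The range was 0.29 for Klk1b3 and for Stk31, a germline kinase, 0.38 for Egfbp2 and 0.45 for Klk1b5. Stk31 stood at -2.56 and -2.41 in J1 and between -0.40 and -0.75 on the 6 raised arrays, 3.32 to 4.07-fold over J1. Of the 4 kallikreins, only Klk1b5 passed in any of the 4 comparisons (-0.34, SE 0.09, in PRDM14-labelled minus Dnmt1-deficient, limma adjusted p 0.0194). A miss of the threshold does not show that lines act alike.

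The 6 members of the X-linked group lay below 0 in both comparisons with the Dnmt1-deficient lines. The other X-linked member, the unnamed probe A_55_P2007495, is one of the 4 probes of shared sequence and was higher in both, by 2.12 and 2.04. Rhox genes encode reproductive homeobox proteins. Of 11 Rhox genes that were not members, 4 passed as higher and 4 as lower in PRDM14-labelled minus Dnmt1-deficient (28.8% and 21.1% of all genes). In PRDM14/DNMT3B1-labelled minus Dnmt1-deficient 0 passed as higher and 7 as lower (24.4% and 19.7%). Rhox2c stood at -3.90 and -3.75 in J1, -6.25 and -5.76 in the Dnmt3b-/- line, -1.35 and -1.45 in the PRDM14-labelled line, -1.78 and -2.25 in the PRDM14/DNMT3B1-labelled line, 2.02 in the Dnmt1-/- line and 2.82 in the TKO. That is 5.37-fold and 3.51-fold over J1 in the PRDM14-labelled lines, 57.5-fold in the Dnmt1-/- line and 100-fold in the TKO. Xlr3b, an imprinted X-linked gene that was well above background on 1 of the 2 J1 arrays, was 184-fold over J1 in the Dnmt1-/- line and 6.17-fold in the PRDM14-labelled line. All 6 passed as lower in the PRDM14-labelled line than in the Dnmt1-deficient lines (Xlr3b -4.38, SE 0.23; Rhox2c -3.82, SE 0.22; limma adjusted p 7.60e-05 and 9.51e-05), and 5 of 6 passed as lower in the PRDM14/DNMT3B1-labelled line. There the unnamed X probe NAP103898-1 led with -4.70, 26.1-fold lower, followed by Rhox2c at -4.44, Rhox2h at -4.15 and Xlr3b at -4.07. Mageb4, a melanoma antigen family gene, was the smallest, at -1.03 and -0.80, and the latter missed the threshold (limma adjusted p 0.0982). The promoter windows of Rhox2c and Rhox2e were identical at 298 of 300 bases and those of Rhox2c and Rhox2h, shown above, at 282, while the 3 probes share no run of 20 bases or more; whether the probes read each other's transcripts was not tested.

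Among the 27 ungrouped members, Lmx1a, a LIM homeodomain factor, and Arg2, a mitochondrial arginase, were on the list of 2-cell genes. Lmx1a was at least 8.78-fold over J1 in the PRDM14-labelled line and at least 1.58-fold in the TKO, and Arg2 at least 3.95 and 1.75-fold. Hnf4a, a hepatocyte and endoderm factor, stood at -6.59 and -5.02 in J1 and -3.65, -2.71, -2.02, -2.36, -3.72 and -1.64 on the raised arrays. It was highest in the TKO, but its difference of 2.07 from the Dnmt1-/- line (SE 0.92) did not pass. Popdc2, a membrane protein of heart and muscle, was the only member to pass as higher in the PRDM14/DNMT3B1-labelled than in the PRDM14-labelled line (1.31, SE 0.27, limma adjusted p 0.0212), and it lay between -4.47 and -2.83 in those 4 arrays. Gm839 was 4.21-fold higher in the TKO than in the Dnmt1-/- line (limma adjusted p 0.0103) and 2.54-fold lower in the PRDM14/DNMT3B1-labelled than in the PRDM14-labelled line (adjusted p 0.00715). Of the 27, 13 passed as higher and 3 as lower in PRDM14-labelled minus Dnmt1-deficient, where 28.8% and 21.1% of all genes tested passed. In PRDM14/DNMT3B1-labelled minus Dnmt1-deficient 12 and 3 passed, where 24.4% and 19.7% of all genes did. ENSMUST00000159087 on chromosome 1 and Gm11554 on chromosome 11 differed by 4.0 and 3.55 in the first, and Gm11554 by 3.47 in the second. Gm11554 was near the floor in J1 (-6.41 and -5.79) and stood at 0.09 and 0.28 in the PRDM14-labelled line, 0.04 and 0.16 in the PRDM14/DNMT3B1-labelled line, -2.78 in the Dnmt1-/- line and -3.95 in the TKO. AK139836, the other member named for a 2-cell embryo clone, stood at 0.96 and 0.85 in J1 and at 5.52 and 5.40, 4.56 and 4.59, 3.07 and 3.13 in the raised lines in the same order. A few members, named after their values were seen, had other orders. Smtnl1, a smooth muscle regulator, stood at -1.10 and -1.34 in J1, 1.18 and 0.96 in the PRDM14-labelled line, 0.92 and 0.98 in the PRDM14/DNMT3B1-labelled line, 2.19 in the Dnmt1-/- line and 2.23 in the TKO. It was 2.20-fold and 2.40-fold lower in the PRDM14-labelled lines than in the Dnmt1-deficient lines (limma adjusted p 0.000785 and 0.000625). Mlana, a melanocyte antigen, stood at -1.36 and -1.38 in J1 and between 0.92 and 1.54 on the 6 raised arrays, and passed in none of the 4 comparisons. Snx20, a sorting nexin, spanned 0.44 between its 4 raised group means. In all, 21 of the 90 members passed in none of the 4. The share of all genes tested that passed in none was not worked out, so this count says nothing particular to the members.

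Other genes of the lists, which were not members, were read against J1 in the same fit. Of 12 other 2-cell genes, 9 passed as higher and 1 as lower than J1 in the PRDM14-labelled line (22.6% and 20.3% of all genes passed), 8 and 1 in the PRDM14/DNMT3B1-labelled line (21.5% and 21.0%), 6 and 2 in the Dnmt1-/- line (14.7% and 16.6%), 5 and 4 in the TKO (15.5% and 16.1%) and 3 and 2 in the Dnmt3b-/- line (12.6% and 10.9%). Tcstv3 (6.76) and Tdpoz4 (4.65) in the PRDM14-labelled line had differences from J1 of 2.02 and -0.21 in the TKO. Of 68 other germline genes, 33, 24, 45, 43 and 19 passed as higher in the 5 lines in that order, and 8, 10, 2, 4 and 12 as lower, with medians of 0.55, 0.23, 1.60, 1.66 and -0.13. Xlr4a was 7.75 log2 units above J1 in the Dnmt1-/- line and 0.54 in the PRDM14-labelled line. Of 11 other Rhox genes, 6, 0, 5, 4 and 0 passed as higher than J1 in the 5 lines in that order, and 3, 4, 1, 4 and 6 as lower. The 14 members on the 2-cell list were chosen with earlier results known and are not counted here. Taking members out leaves list genes that missed at least 1 part of the rule, and these counts use the same differences from J1. The counts of the 2-cell genes, with their fall towards the TKO, are therefore partly set by the rule and only describe the list.

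Values near the thresholds show how the set was bounded. Gpx6, at a lowest difference of 1.505, Gm839 (1.51) and Gm8884 (1.513) were the last inside the 1.5 threshold, and Gtsf1 (1.499), C4b (1.493) and Klk1b24 (1.437) the first outside. For the Dnmt3b-/- line A_55_P2105843 (0.487), ENSMUST00000098289 (0.415) and BB713741 (0.372) were the last inside, and Tmem40 (0.517), Gm7167 (0.518) and Usp17l5 (0.543) the first outside. Of 28 further probes for 22 members, 17 were well above background on all arrays of the 4 raised lines. Of these 17, 16 also reached 1.5 in all 4 lines, the other being that of Dub1. Of the 16, 4 stood at least 0.5 above J1 in the Dnmt3b-/- line and so did not meet the whole rule (Xlr3b 1.59, LOC641136 1.36, A430089I19Rik 0.89 and Zscan4c 0.51). The background filter asks for signal in the raised lines, so it favours probes that are high there and the 16 are no independent check. Among the dimmer probes it left out, only that of BC061212 reached 1.5 in all 4 lines. That of A430060F13Rik was flat (-0.04, -0.11, -0.13 and -0.16), and that of Gm10696 was flat in the Dnmt1-/- line (-0.03) and TKO (-0.05).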

How the data were processed

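Total RNA from 10 samples of mouse ES cells was hybridised to 10 one-colour Agilent arrays (mm9 probe positions, per the file headers) and read with Agilent Feature Extraction 10.7.3.1, per the submitters' processing notes. The authors' deposited scanner files hold processed-signal intensity, and their deposited value table holds log2 values whose scaling method is unknown; its array medians are 4.243 and it follows log2 intensity with r from 0.9993 to 0.9998. The value table chose the members. Levels and tests used log2 intensity minus each array's 75th percentile, without outlier spots, the brightest probe per gene and probes well above background on all arrays of at least 1 group, in 1 limma (3.58.1, R 4.3.3) fit of all 10 arrays with Benjamini-Hochberg adjustment (20490 genes, residual df 4, prior df 1.756), tested on simulated data. Scan pass and slide differ among arrays, and scan pass cannot be told apart from line in the comparisons with the Dnmt1-deficient lines. Precision is limited by the number of arrays. Named were genes on the lists, the members with the largest lowest difference, the 4 largest calls each way per comparison, family members and threshold neighbours; the members and lists were chosen with earlier results of these data known. Sequences are from RefSeq, and 61 members matched it.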

Additional observations from a re-analysis of the deposited data

Results flagged for a closer look

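Among 16194 intergenic RNA probes that the members' naming rule leaves out, 10 met the same thresholds, which is a signal in data outside the comparisons. On chromosome 5, 6 of them lie between 14948362 and 15168564 (mm9) and 1 at 110909614, and 3 lie on the X from 123299977 to 123306654. Their differences from J1 in the deposited table ran from 4.14 to 8.25 in the PRDM14-labelled line and from 1.95 to 5.54 in the Dnmt1-/- line.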

How the results depend on the processing

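Most counts that moved by over 1.5 times were those of PRDM14/DNMT3B1-labelled minus PRDM14-labelled and TKO minus Dnmt1-/-. The median of all genes in PRDM14-labelled minus Dnmt1-deficient was -0.122 without a filter on dim probes and 0.08 in the reported fit. Under normexp background correction 37 members were lower and 0 higher in PRDM14/DNMT3B1-labelled minus PRDM14-labelled, and 17 higher and 20 lower in TKO minus Dnmt1-/-. Quantile normalization and the deposited table each gave 9 higher in TKO minus Dnmt1-/- (5.37% and 5.42%). Without a filter on dim probes 9 were lower in PRDM14/DNMT3B1-labelled minus PRDM14-labelled (4.29%), and 1 higher (1.48%) and 7 lower (2.14%) in TKO minus Dnmt1-/-. Requiring probes above background on all 10 arrays left 31 members, 6 lower in the former (15.9%) and 1 higher in the latter (6.09%). Of these 31, 22 were higher (34.9%) and 2 lower (19.9%) in PRDM14-labelled minus Dnmt1-deficient. In PRDM14/DNMT3B1-labelled minus Dnmt1-deficient 21 were higher (30%) and 1 lower (18.4%). With slide as a random block (correlation 0.46) 2 were higher in the first comparison, and 12 higher and 20 lower in TKO minus Dnmt1-/-; with slide as a fixed block 1 was higher there. The slide block on PRDM14/DNMT3B1-labelled minus Dnmt1-deficient was chosen after seeing the data. Replicate numbers pair no samples in the labels. Yet among the groups of 2 arrays, the departures of array 1 from its group mean were correlated in every pair of groups (r 0.256 to 0.51, 16072 genes). The cause of that was not tested. With the replicate block 3 members were higher (15.6%) and 22 lower (17.1%) in PRDM14/DNMT3B1-labelled minus PRDM14-labelled. Leaving out 1 array gave 0 to 2 higher and 6 to 26 lower there, 1 to 7 and 8 to 14 in TKO minus Dnmt1-/-, 47 to 60 and 6 to 10 in PRDM14-labelled minus Dnmt1-deficient, 42 to 49 and 7 to 14 in PRDM14/DNMT3B1-labelled minus Dnmt1-deficient, and 88 to 93 members under the rule, of which 76 to 89 were shared. In the fits without 1 array of either PRDM14-labelled line, the share of all genes that passed fell in every comparison and direction. A threshold of 2 gave 62 members. Of the 64, 55, 19 and 18 members called in PRDM14-labelled and PRDM14/DNMT3B1-labelled minus Dnmt1-deficient, PRDM14/DNMT3B1-labelled minus PRDM14-labelled and TKO minus Dnmt1-/-, in that order, 52, 48, 6 and 7 were called in every alternative run that tested them. The run with probes above background on all 10 arrays tested only 31 members, so members absent from it are still counted. The cause of the moves was not tested.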
